A study of Mus musculus with 6 samples.

Results

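Lysosomes hold the acid hydrolases that degrade proteins, sugars and lipids, and in mast cells the secretory granules are closely related to them. The genes described here are 48 listed members of that system: cathepsins and other peptidases, glycosidases, sulfatases and lipid hydrolases, membrane and transport proteins, the subunits of the proton pump (V-ATPase) that acidifies the compartment, and the transcription factors Tfeb and Tfe3. They were listed by name, with earlier results of these data known and with no threshold on their values, and all 48 were found among the 35297 genes with a matched transcript. Their RNA was measured in BMMCs, mast cells grown from the bone marrow of naive wild-type mice, of the inbred strains BALB/c (libraries S9, S10 and S11) and C57BL/6 (libraries S12, S13 and S14). All cultures received IL-3, IL-9, TGF-β1 and stem cell factor, the labels name no stimulation, and all were taken on day 20. Each strain is represented by 3 libraries, which the study describes as biological replicates. The number of mice behind them is not given in the sources used here, so the p-values measure the spread between these libraries.

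Cathepsins are made as inactive precursors that mature at low pH, and the V-ATPase supplies that pH by coupling ATP hydrolysis in its cytosolic V1 part to proton transport through its membrane V0 part. Tfeb and Tfe3 belong to the MiT/TFE family, which binds CACGTG-type sites near many lysosomal genes and raises their transcription when nutrients are scarce. In mast cells, lysosomal enzymes such as β-hexosaminidase are stored in the secretory granules and are released with their content.

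Between 28273365 and 37100869 reads per library fell on genes. The label was checked against 10 mast cell genes, all of which were expressed in both strains, with Kit at 500 ± 40.7 TPM (transcript abundance per length, with an equal sum in all libraries; SD, n = 3) in BALB/c and 487 ± 5.80 TPM in C57BL/6. Of these, 6 were higher in C57BL/6 by adjusted p, among them Hdc (log2 fold change 1.19, past 2-fold), Mcpt2 (0.60) and Kit (0.14), Cma1 was lower (-0.43), and 3 did not pass. These calls are on counts after scaling to library size with TMM correction, where Kit stood higher in C57BL/6, whereas its mean TPM above was lower there, so that its direction depends on the scale. Neutrophil and eosinophil genes stayed too low to be tested. Of 9 macrophage genes, Csf1r, C1qa, C1qb, C1qc and Mertk were at 0 in every library and Lyz2 and Mrc1 at 2 reads or fewer, whereas Adgre1 and Cd68 were higher in C57BL/6, so that the summed level of the list went from between 0.936 and 1.77 TPM to between 8.34 and 9.72 TPM. Of 6 dendritic cell genes Itgax passed both thresholds upwards, and the others had at most 5 reads in a library. Of 6 basophil genes Mcpt8, Prss34 and Cebpa passed both upwards, Ms4a3 was higher by adjusted p, and Cd200r3 (-0.07) and Itga2 (0.15) did not pass. Of 6 erythroid genes Hbb-bt was at 0 reads in BALB/c and between 160 and 214 in C57BL/6, and the others had at most 10 reads. In RNA of whole cultures, fewer cells of a type and less RNA per cell cannot be told apart.

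Strain differences were tested with edgeR's quasi-likelihood test on estimated counts over all 12461 genes with enough reads. They are given on the log2 scale as C57BL/6 relative to BALB/c. A gene is called here higher or lower when its adjusted p was under 0.05, and past both thresholds when the fold change also exceeded 2. Of the 48 genes, 46 could be tested. The cysteine cathepsins Ctsh (at most 4 reads in a library) and Ctsk, the collagen-degrading protease of osteoclasts (at most 2 reads), were too low in both strains.

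Most lysosomal genes differed little, and a few differed strongly in opposite directions. Past both thresholds were 5 of 46 tested genes (10.9%, against 13.3% of all genes tested): Atp6v0d2, Npc1 and Asah1 were higher in C57BL/6 (7.73% of all genes were), and Ctse and Tfeb were lower (5.54% of all genes). By adjusted p alone, 19 genes were higher, 7 were lower and 20 were neither, so that 56.5% passed, against 52.9% of all genes (27% higher and 25.9% lower). The 3 libraries of one strain lay entirely above those of the other for 20 genes higher and 8 genes lower in C57BL/6, or 60.9% of those tested, against 61.9% of all genes. The median log2 fold change was 0.08, against -0.01 for all genes. With both directions counted, the shares that passed or did not overlap were near those of all genes. The split by direction differed from that of all genes. Among genes that passed the adjusted p, 73.1% of the lysosomal genes were higher, against 51% of all genes. Among all genes tested, 31% were higher and 30.9% lower without overlap, where the lysosomal genes numbered 20 higher and 8 lower.

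The surplus of higher over lower genes depended on how libraries were scaled. Without the TMM correction of library size the count was 10 higher and 18 lower, and on log2(TPM + 1) it was 11 higher and 21 lower. All genes shifted in the same way, to 2285 higher and 5520 lower and to 2035 higher and 5834 lower. The share of higher genes among those that passed was thus 35.7% against 29.3% of all genes, and 34.4% against 25.9%. These scalings moved the median of all genes to -0.15 (both) and that of the lysosomal genes to -0.07 and -0.10, so that the lysosomal median stayed 0.08 and 0.05 above that of all genes. Under each of 19 other settings, 13 genes passed the adjusted p in the same direction: Ctsb, Hexa, Gla, Asah1, Lamp2, Npc1, Atp6v0b, Atp6v0d2 and Atp6v1d were higher, and Ctsc, Ctse, Smpd1 and Psap were lower. This is 28.3% of the tested lysosomal genes, against 27.4% of all genes.

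**Figure D1:**
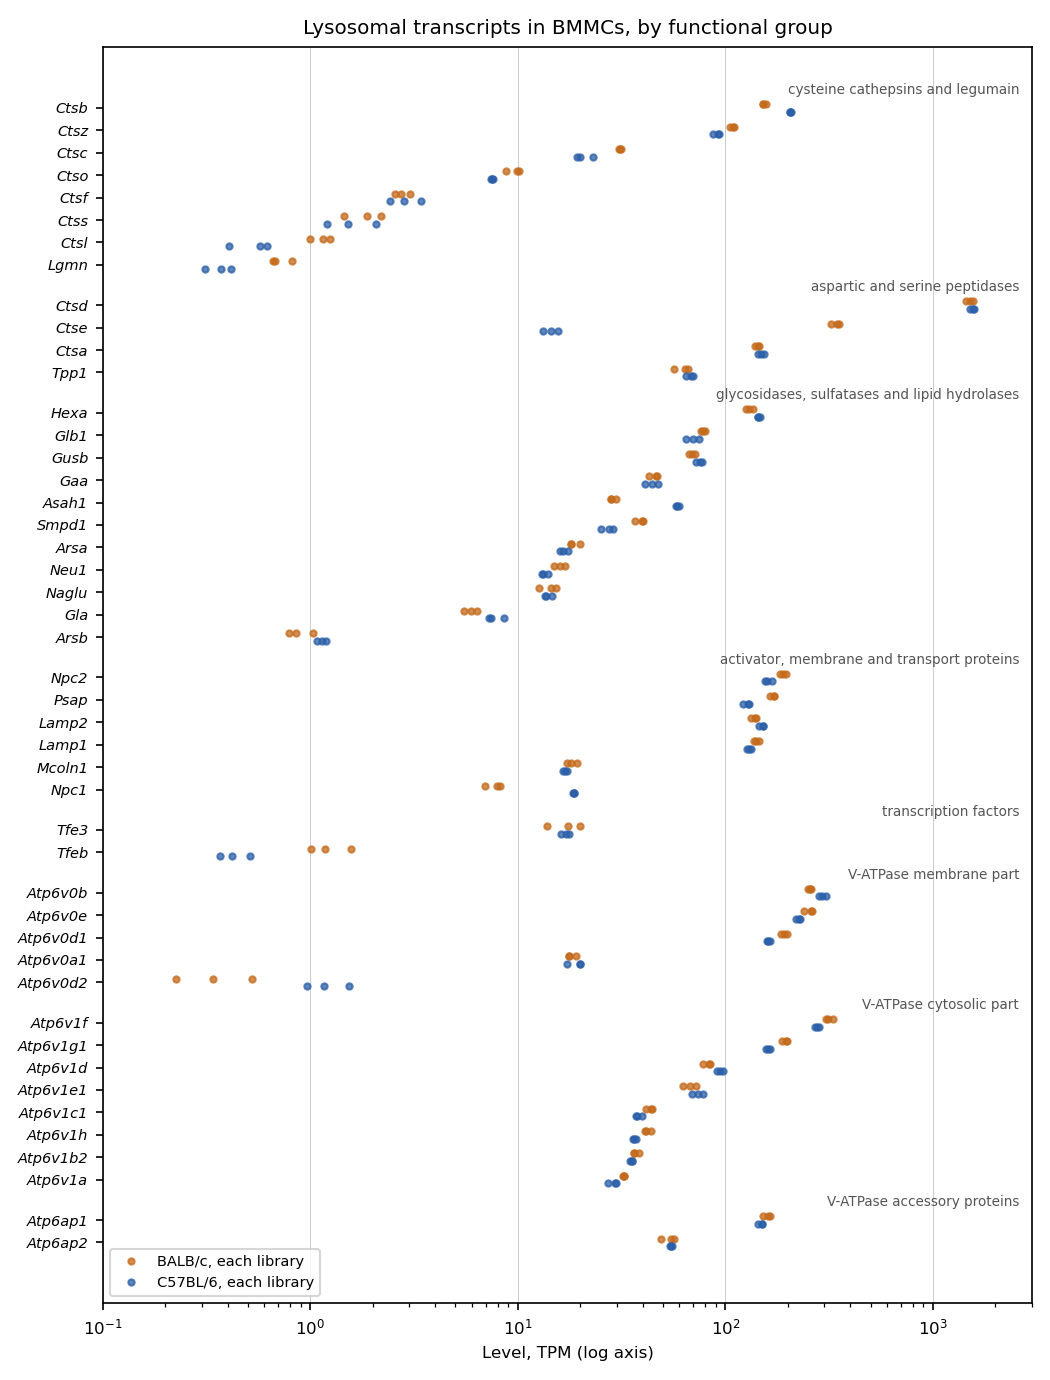
Level of each tested lysosomal gene in TPM on a log axis, grouped by function. Each point is 1 library, orange for BALB/c and blue for C57BL/6. Single libraries run from 0.225 TPM for Atp6v0d2 to 1578 TPM for Ctsd, and the largest gap between the strains is that of Ctse.

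Levels differed widely between the genes. Ctsd, the aspartic protease cathepsin D, led with 1446, 1504 and 1557 TPM in BALB/c and 1578, 1502 and 1567 TPM in C57BL/6. By mean level over all libraries, the next in order were Atp6v1f and Atp6v0b, followed by Atp6v0e and Ctsb. The order differed between the strains: Ctse was above Atp6v1f in BALB/c, at 340 ± 14.6 TPM, and at 14.4 ± 1.23 TPM in C57BL/6. The levels of Atp6v1f and Atp6v0b changed places between the strains: Atp6v1f was at 316 ± 13.1 and Atp6v0b at 255 ± 3.33 TPM in BALB/c, and they were at 277 ± 6.93 and 294 ± 12.1 TPM in C57BL/6. In both strains 14 genes exceeded 100 TPM and 9 stayed under 5 TPM. Summed over all 48 genes, the level was 5223 ± 71.7 TPM in BALB/c and 4846 ± 81.0 TPM in C57BL/6, with ranges of 5155 to 5298 and 4752 to 4894 that do not overlap. TPM lacks the TMM correction. In CPM (counts scaled to library size after TMM correction) the order turned round, with sums of 6393, 6598 and 6613 in BALB/c and of 6754, 6815 and 6835 in C57BL/6, so the direction of the sum depends on the scale.

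Libraries of a strain agreed closely for most genes, and the widest spreads were at low levels. Tfe3, at a higher level, also varied in BALB/c, with 37.1, 41.0 and 29.8 CPM. The coefficient of variation of a tested gene's CPM had a median of 4.26% in BALB/c and 3.13% in C57BL/6. It was largest for Atp6v0d2 in BALB/c (39.9%) and for Ctsl in C57BL/6 (29.5%).

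The transcription factor Tfeb was lower in C57BL/6. BALB/c cultures had 54, 75 and 57 reads, and C57BL/6 cultures had 29, 29 and 26. The groups did not overlap, but every library held few reads. The log2 fold change was -1.08 (SE 0.26, adjusted p = 0.00716 in edgeR's quasi-likelihood test). It was -0.74 with an adjusted p of 0.382 when only transcripts of the same accession version were used, and it was under 2-fold without S10 (-0.84) and without S14 (-0.94), with an adjusted p that still passed. Tfeb lies on chromosome 17 of GRCm39 (48047837 to 48103348, forward strand; ENSMUSG00000023990).

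Tfe3 was the more abundant of these factors, at 17.1 ± 3.08 TPM in BALB/c and 16.9 ± 0.766 TPM in C57BL/6, where Tfeb had 1.25 ± 0.294 and 0.433 ± 0.0743 TPM. The Tfe3 log2 fold change of 0.16 did not pass (95% interval -0.07 to 0.39), though without S10 it passed as higher (adjusted p = 0.0433 in edgeR). Of the rest of the family, Mitf was lower by a log2 fold change of -0.23 (adjusted p = 0.00124 in edgeR) at 23.1 ± 0.947 against 17.5 ± 0.612 TPM, and Tfec was at 0 reads in every library. Among 15 further genes, namely Mitf and Tfec, the Rag and Ragulator genes and the regulators Flcn, Fnip1, Fnip2 and Zkscan3, 13 were tested, 3 were higher and 7 were lower, so that 76.9% passed, where 27% of all genes were higher and 25.9% lower. Rragb, a Rag GTPase, was past both thresholds (log2 fold change -1.14, SE 0.19, adjusted p = 0.000773 in edgeR). It had few reads, 74, 90 and 109 in BALB/c against 42, 37 and 38 in C57BL/6. The more abundant Rraga (0.27) and Rragc (0.16) were higher by adjusted p.

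The promoters of the lysosomal genes were searched for the letters these factors bind. RefSeq windows from 250 bases before to 50 after a gene's start (assembly GRCm38.p6) were found for 38 of the 48 genes, 44 windows in all. Not matched were Ctsb, Ctse, Ctsh, Asah1, Npc1, Atp6v0d2, Atp6v1b2, Atp6v1c1, Atp6v1g1 and Atp6v1h. The hexamer CACGTG, which reads the same on both strands, was in 16 windows (36.4%), against 7.15% of all 32851 windows. Its extension TCACGTGA was in 7 windows (15.9%), against 0.974%, and the longer CLEAR consensus was in none, against 0.326%. The TCACGTGA sites are shown because they are the closest matches among the lysosomal genes. Each is printed 5′ to 3′ on the strand of its gene, with CACGTG in capitals.
Atp6v0d1, chr8:105566052-105566077: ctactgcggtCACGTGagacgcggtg
Atp6v0e, chr17:26676389-26676414: gcgcgccgatCACGTGagcctctgtt
Atp6v1a, chr16:44139375-44139400: ttttttaaatCACGTGataggcttaa
Ctsa, chr2:164833751-164833776: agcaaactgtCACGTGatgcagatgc
Ctsa, chr2:164833768-164833793: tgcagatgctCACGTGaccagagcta
Ctsd, chr7:142387910-142387935: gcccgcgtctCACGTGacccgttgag
Gla, chrX:134601184-134601209: agatctcggtCACGTGagcaactctc
Gla, chrX:134601217-134601242: agcgattgatCACGTGagcatctacg
Mcoln1, chr8:3500464-3500489: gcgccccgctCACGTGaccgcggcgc

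Atp6v0d1, Atp6v1a, Ctsd and Gla are on the reverse strand, and Atp6v0e, Ctsa and Mcoln1 on the forward strand. The first base of CACGTG in these sites lay between 227 bases before the gene start (Gla) and 5 bases after it (Ctsa). Of these 7 genes, Ctsa (log2 fold change 0.24), Ctsd (0.22) and Gla (0.57) were higher in C57BL/6 by adjusted p, and Atp6v0d1 (-0.07), Atp6v0e (0.01), Atp6v1a (0.01) and Mcoln1 (0.08) did not pass. Of all genes tested, 27% were higher and 25.9% lower. Of the 16 genes with CACGTG, 5 were higher and 2 were lower, with a median log2 fold change of 0.07. Of the 21 tested genes with a window but no CACGTG, 9 were higher and 4 were lower, with a median of 0.08. Ctse, Asah1, Npc1 and Atp6v0d2, which passed both thresholds, had no window and are in neither set. These counts were not repeated under other scalings. The lower genes with the hexamer were Ctsl and Lgmn, and the sites are shown for comparison with those above.
Ctsl, chr13:64370741-64370766: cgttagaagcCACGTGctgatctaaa
Lgmn, chr12:102439126-102439151: gaatgtctgtCACGTGgtccatttta

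**Figure D2:**
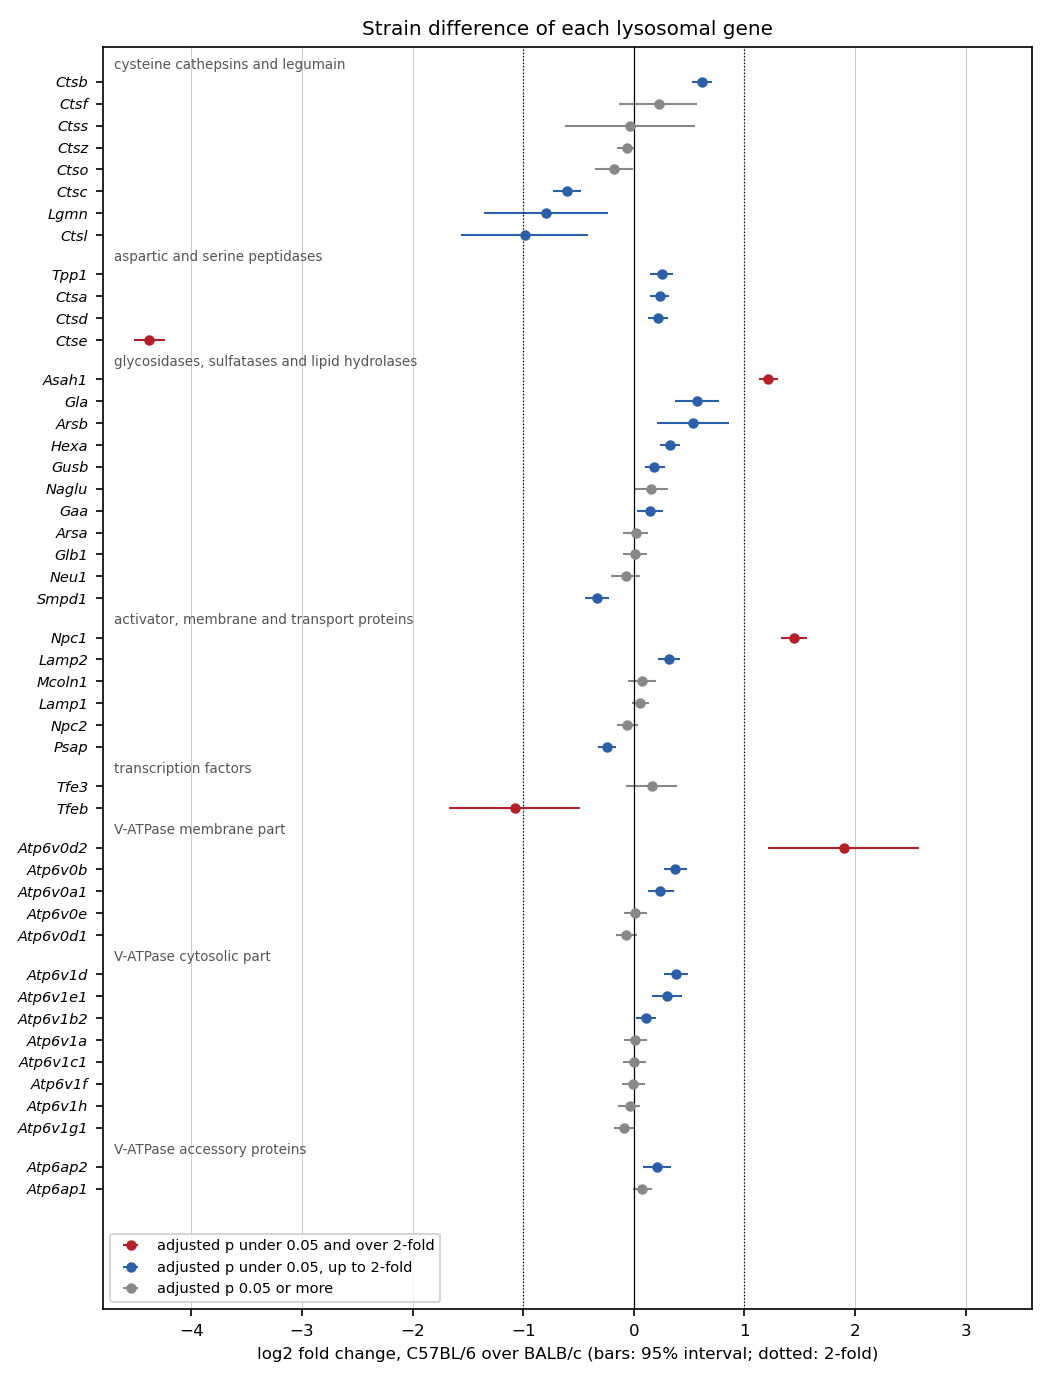
Strain difference (log2, C57BL/6 relative to BALB/c) of each of the 46 tested genes, with 95% intervals and grouped by function. Red genes passed both thresholds, blue genes passed the adjusted p alone and grey genes passed neither. Most points lie within 2-fold (dotted lines), and Ctse lies far to the left at -4.38.

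Of 8 tested cysteine cathepsins and legumain, Ctsb was higher in C57BL/6, Ctsc, Ctsl and Lgmn were lower, and none passed both thresholds. By adjusted p 50% passed, against 52.9% of all genes. Ctsb, cathepsin B, is a broadly expressed lysosomal peptidase. It stood at 158, 152 and 151 TPM in BALB/c and at 207, 204 and 205 TPM in C57BL/6. Every C57BL/6 library was above every BALB/c library, with a log2 fold change of 0.62 (SE 0.04, adjusted p = 1.69e-06 in edgeR).

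Ctsc encodes cathepsin C, the dipeptidyl peptidase that activates mast cell chymases by trimming their N-terminus. Its level was 31.1, 30.7 and 31.5 TPM in BALB/c and 23.0, 20.0 and 19.3 TPM in C57BL/6. The groups did not overlap, and the log2 fold change was -0.61 (SE 0.05, adjusted p = 1.62e-05 in edgeR). It was -0.41 when the mean length of the gene's transcripts in each library was taken into account. The shares of its transcripts are given below.

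Ctsl and Lgmn were expressed at very low levels. Ctsl, cathepsin L, had 57, 52 and 55 reads in BALB/c against 18, 28 and 33 in C57BL/6. The log2 fold change of -0.98 (SE 0.25, adjusted p = 0.0100 in edgeR) was close to 2-fold, which it exceeded under 5 of 19 other settings, among them without S11, without S13 and without S14. The adjusted p was 0.0501 when transcripts that matched no gene were kept in the test. All words of 31 bases of the processed pseudogene Gm49230 also occur in Ctsl, and how reads from it were counted was not tested. Lgmn, the asparaginyl endopeptidase legumain that processes other cathepsins, had 26, 30 and 31 reads against 18, 12 and 18. The groups did not overlap, and the log2 fold change was -0.79 (SE 0.25, adjusted p = 0.0242 in edgeR), which no longer passed without S10 (0.0813), without S13 (0.0828) or without S14 (0.0717), nor in DESeq2 (0.177).

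Ctsz, Ctso, Ctsf and Ctss did not pass. Ctsz was the most abundant of these, at 108 ± 2.43 TPM in BALB/c and 90.8 ± 3.42 TPM in C57BL/6, with a log2 fold change of -0.07 (95% interval -0.15 to 0.01). Ctsz and Ctso passed as lower without the TMM correction and on TPM, and Ctso also without S9. Ctss, the cathepsin of antigen processing in professional antigen-presenting cells, was at 1.83 ± 0.367 and 1.60 ± 0.438 TPM. Its 95% interval ran from -0.62 to 0.55, so that neither the direction nor the size of a difference is settled.

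All 4 aspartic and serine peptidases passed the adjusted p, as did 52.9% of all genes, and Ctse had the largest change. Ctse encodes cathepsin E, an aspartic protease related to cathepsin D that is restricted to certain immune and epithelial cells. Its reads numbered 15113, 14107 and 16950 in BALB/c, against 762, 622 and 723 in C57BL/6. In levels these were 351, 345 and 323 TPM against 15.7, 14.4 and 13.2 TPM. Every BALB/c library lay far above every C57BL/6 library. The log2 fold change was -4.38 (SE 0.06, adjusted p = 2.23e-10 in edgeR), a level 20.8-fold higher in BALB/c, and it lay between -4.55 and -4.31 under 19 other settings. The gene lies on chromosome 1 of GRCm39 (131566009 to 131603243, forward strand; ENSMUSG00000004552).

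Ctsd moved the other way by a small amount, with a log2 fold change of 0.22 (SE 0.04, adjusted p = 0.00165 in edgeR). The call was lost without the TMM correction (0.08, adjusted p = 0.140 in edgeR) and on TPM, where the log2 difference was 0.04. Cathepsin E made up 19.5%, 18.7% and 17.2% of the summed TPM of Ctsd and Ctse in BALB/c and 0.983%, 0.951% and 0.836% in C57BL/6. The summed level of these aspartic cathepsins was 1842 ± 42.3 TPM in BALB/c and 1563 ± 41.7 TPM in C57BL/6. Ctsa, the carboxypeptidase that protects the lysosomal sialidase and β-galactosidase, and Tpp1, a tripeptidyl peptidase, were higher by log2 fold changes of 0.24 and 0.25, calls that were lost without the TMM correction and on TPM. The value of Ctsa was -0.83, with an adjusted p that did not pass, when only transcripts of the same accession version were used, which leaves out its main transcript.

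**Figure D3:**
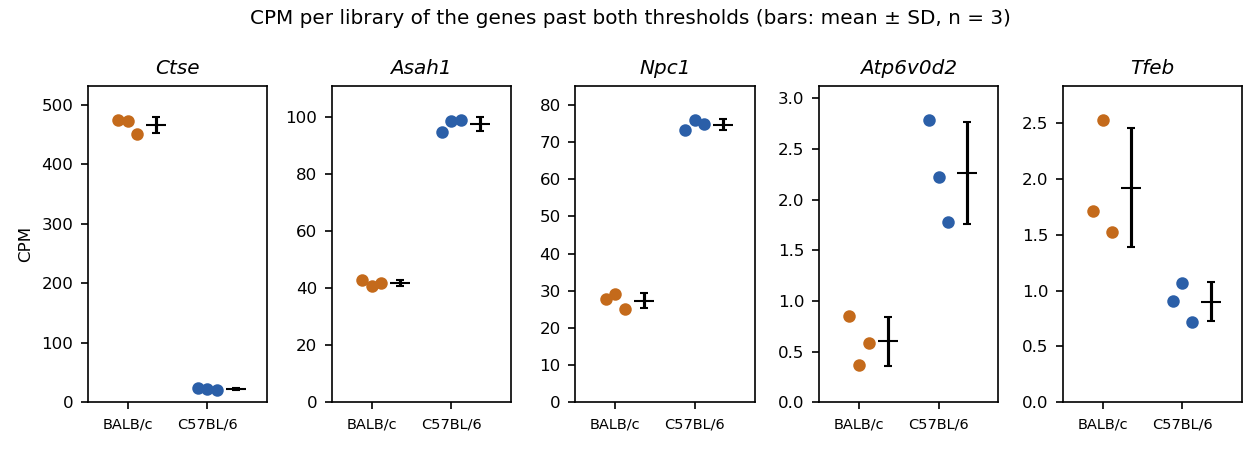
CPM of the 5 genes past both thresholds in each library, with mean and SD beside the points (n = 3 per strain) and axes starting at 0. In each panel the libraries of the strains do not overlap. Atp6v0d2 and Tfeb lie under 3 CPM, and Ctse, Asah1 and Npc1 are far more abundant.

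Among 11 glycosidases, sulfatases and lipid hydrolases, 6 were higher, 1 was lower and 4 did not pass, so that 63.6% passed, against 52.9% of all genes. Asah1, the acid ceramidase that splits ceramide into sphingosine and fatty acid, had 1367, 1218 and 1578 reads in BALB/c and 3027, 2670 and 3500 in C57BL/6. Its level was 28.6 ± 0.981 TPM against 58.8 ± 1.08 TPM, with all C57BL/6 libraries above all BALB/c libraries. The log2 fold change was 1.22 (SE 0.04, adjusted p = 2.89e-08 in edgeR), and it stayed between 1.01 and 1.24 under 19 other settings. Asah1 lies on chromosome 8 of GRCm39 (41792846 to 41827851, reverse strand; ENSMUSG00000031591). Smpd1, the acid sphingomyelinase that makes ceramide from sphingomyelin, was the lower gene of the group, at 38.7 ± 1.91 against 27.1 ± 1.83 TPM and a log2 fold change of -0.33 (adjusted p = 0.000442 in edgeR).

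The other members of this group that passed differed by less than Asah1. Gla, α-galactosidase A, was at 5.47, 6.37 and 5.93 TPM in BALB/c and 8.59, 7.45 and 7.25 TPM in C57BL/6, without overlap. Its log2 fold change was 0.57 (SE 0.09, adjusted p = 0.000605 in edgeR). Arsb, a sulfatase of dermatan sulfate, was higher by 0.53 at about 1 TPM, a call that held in 15 of 19 other settings and was lost in DESeq2, among others (highest adjusted p 0.0695).

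Hexa encodes the α subunit of β-hexosaminidase, the enzyme whose release the study used as its measure of degranulation. Its level was 130, 135 and 126 TPM in BALB/c and 144, 144 and 146 TPM in C57BL/6. The groups did not overlap, and the log2 fold change was 0.33 (SE 0.04, adjusted p = 0.000106 in edgeR).

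Gusb, β-glucuronidase, was higher by a log2 fold change of 0.19 (SE 0.04, adjusted p = 0.00321 in edgeR), at 71.2, 66.5 and 68.7 TPM against 75.1, 72.1 and 77.1 TPM. Without the TMM correction the value was 0.04 and did not pass. Gaa, the acid α-glucosidase that degrades glycogen, was higher by 0.14 (adjusted p = 0.0410 in edgeR) and passed in 9 of 19 other settings. Its sign turned in 3 of the 19, with a lowest value of -0.04. Glb1, Arsa, Naglu and Neu1 did not pass, with log2 fold changes from -0.07 (Neu1, the sialidase) to 0.16 (Naglu, an enzyme of heparan sulfate breakdown). Neu1 passed as lower without the TMM correction and on TPM, Glb1 as lower on TPM, and Naglu as higher without S10.

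The activator, membrane and transport proteins included the largest change after Ctse and Atp6v0d2. Npc1 exports cholesterol from the lysosome, receiving it from the soluble carrier Npc2. Npc1 had 885, 866 and 949 reads in BALB/c and 2338, 2055 and 2650 in C57BL/6. The level was 7.91, 8.18 and 6.97 TPM against 18.5, 18.4 and 18.7 TPM, with no overlap and a narrow spread in C57BL/6. The log2 fold change was 1.45 (SE 0.05, adjusted p = 7.22e-08 in edgeR), and it lay between 1.17 and 1.49 under 19 other settings. Npc1 lies on chromosome 18 of GRCm39 (12322749 to 12369550, reverse strand; ENSMUSG00000024413). Npc2 was far more abundant and did not pass, at 189 ± 6.32 against 161 ± 6.59 TPM and a log2 fold change of -0.06 (95% interval -0.15 to 0.04). Without the TMM correction and on TPM it passed as lower.

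Lamp2, a heavily glycosylated protein of the lysosomal membrane that also serves in chaperone-mediated autophagy, was higher by 0.32 (adjusted p = 0.000188 in edgeR). Its relative Lamp1 did not pass (0.06, 95% interval -0.02 to 0.14), though on TPM it passed as lower. Psap, the precursor of the saposins that help hydrolases reach their lipids, was lower by a log2 fold change of -0.24 (adjusted p = 0.000325 in edgeR), at 169 ± 4.62 against 126 ± 4.41 TPM. Mcoln1, the calcium channel of the lysosomal membrane, did not pass (0.08, 95% interval -0.05 to 0.20).

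In the V-ATPase, 7 of the 15 tested subunits and accessory proteins were higher, none was lower and 8 did not pass, where 27% of all genes were higher and 25.9% lower. This count follows the scaling: without the TMM correction 3 were higher and 7 lower, and on log2(TPM + 1) 3 were higher and 8 lower. Atp6v0b, Atp6v0d2 and Atp6v1d were higher in both. Atp6v0d2 was the exception in size. This d subunit isoform of the membrane part is known from osteoclasts and macrophages, while Atp6v0d1 is its widely expressed counterpart. It had 27, 11 and 22 reads in BALB/c and 89, 60 and 63 in C57BL/6, with no overlap. The log2 fold change was 1.90 (SE 0.30, adjusted p = 0.000677 in edgeR), and on log2(TPM + 1) the difference was 0.70, under 2-fold. Even so, Atp6v0d2 made up only 0.191 ± 0.0848% of the summed TPM of the d subunits in BALB/c and 0.750 ± 0.179% in C57BL/6. Atp6v0d1 stood at 191 ± 6.10 and 161 ± 3.06 TPM and did not pass (-0.07, 95% interval -0.16 to 0.03), but passed as lower without the TMM correction and on TPM. Atp6v0d2 lies on chromosome 4 of GRCm39 (19876838 to 19922614, reverse strand; ENSMUSG00000028238).

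Macrophage and osteoclast markers were read beside Atp6v0d2. Of the macrophage list, 2 of 9 genes were higher (Adgre1 by a log2 fold change of 4.93 and Cd68 by 2.01) and the 5 named above were at 0 in every library. Of 6 osteoclast genes, Calcr, Ocstamp and Dcstamp were at 0, Mmp9 had at most 1 read in a library, and Acp5 (0.54) and Nfatc1 (0.17) did not pass, with the summed level between 31.6 and 35.9 TPM in BALB/c and between 31.1 and 35.5 TPM in C57BL/6. The part of other cell types in the Atp6v0d2 result was not tested.

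The widely expressed V0 subunits changed little. Atp6v0b, one of the proteolipids of the membrane ring, was at 255, 258 and 251 TPM in BALB/c and 283, 307 and 291 TPM in C57BL/6, without overlap, and its log2 fold change was 0.37 (SE 0.05, adjusted p = 0.00016 in edgeR). Atp6v0a1 was higher by 0.24 (adjusted p = 0.00338 in edgeR), a call that was lost without the TMM correction and on TPM. Atp6v0e was at 240, 260 and 257 TPM against 229, 219 and 225 TPM, and its log2 fold change of 0.01 did not pass (95% interval -0.09 to 0.12). It was -0.13 without the TMM correction and -0.17 on TPM, so that its sign follows the scaling.

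In the cytosolic V1 part, Atp6v1d, a subunit of the rotor stalk, was higher by 0.38 (adjusted p = 0.000132 in edgeR), Atp6v1e1 of the peripheral stalk by 0.30 (adjusted p = 0.00263) and the ATP-binding Atp6v1b2 by 0.11 (adjusted p = 0.0375). The call on Atp6v1b2 held in 7 of 19 other settings, and its sign turned in 3 of the 19. The call on Atp6v1e1 was lost without the TMM correction and on TPM. Atp6v1a, the catalytic subunit, and Atp6v1c1, Atp6v1f, Atp6v1g1 and Atp6v1h lay between -0.09 and 0.01 and did not pass. Without the TMM correction and on TPM all 5 passed as lower, and Atp6v1g1 also without S9. Atp6v1f was at 312, 331 and 307 TPM against 270, 284 and 277 TPM, with a log2 fold change of -0.01 (95% interval -0.11 to 0.10). The accessory protein Atp6ap2 was higher by 0.21 (adjusted p = 0.0125 in edgeR), a call that held in 15 of 19 other settings, and Atp6ap1 did not pass (0.08, 95% interval -0.01 to 0.16).

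Subunits outside the list showed changes in isoform. Of 5 other V-ATPase genes tested, 2 were higher and 3 lower, where 52.9% of all genes passed. Of the 2, Atp6v0c did not pass once its copy was summed with it. Atp6v0e2, a relative of Atp6v0e, had 207, 226 and 310 reads in BALB/c, against 2, 0 and 0 in C57BL/6. It made up 2.46 ± 0.167% of the summed TPM of the e subunits in BALB/c and was nearly absent in C57BL/6. Among the a subunits, which direct the pump to different membranes, Atp6v0a1 made up 31.9 ± 0.430% of the summed TPM in BALB/c and 40.2 ± 1.27% in C57BL/6, while Tcirg1 went from 28.8 ± 0.377% to 21.8 ± 1.17% with a log2 fold change of -0.48 (adjusted p = 0.000236 in edgeR). The share of Atp6v0a2 was 39.3 ± 0.491% and 38.0 ± 2.18%. Atp6v0c, the main proteolipid, appeared higher by 2.52, but its copy Atp6v0c-ps2 held between 4316 and 5219 reads in BALB/c and 0 in C57BL/6. With the reads of both summed, the log2 fold change was 0.02 (SE 0.03, adjusted p = 0.604 in edgeR).

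**Figure D4:**
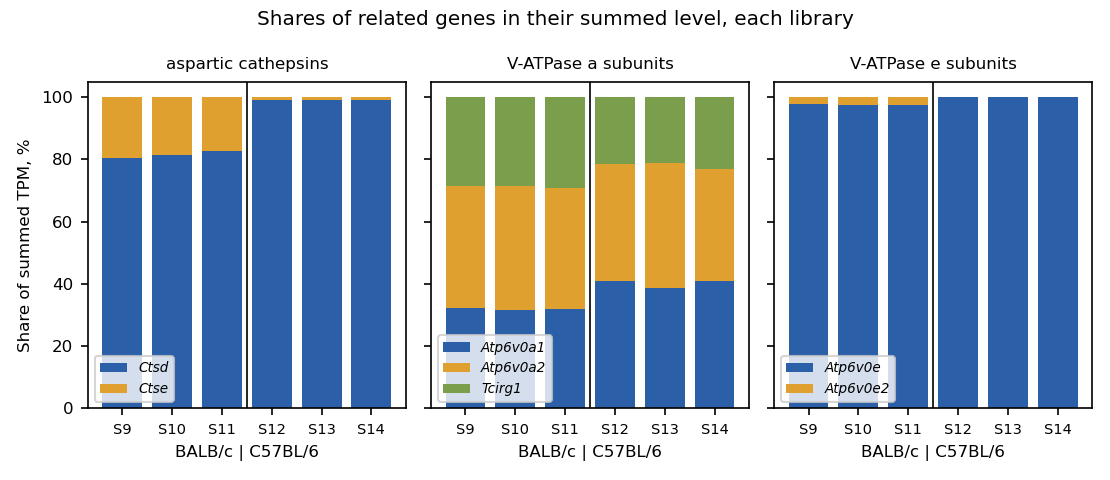
Share of related genes in their summed TPM, one bar per library, with BALB/c (S9 to S11) left and C57BL/6 (S12 to S14) right of the line. The share of Ctse is 18.5 ± 1.18% in BALB/c and 0.923 ± 0.0771% in C57BL/6, Atp6v0e2 is visible in BALB/c bars alone, and Tcirg1 has the smaller share in C57BL/6.

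Further genes of the lysosome were read from lists of 99 genes, of which 83 were tested. Past both thresholds were 10 (12%): 6 higher and 4 lower, beside the 13.3% of all genes. By adjusted p alone, 30 were higher and 21 lower, or 61.4%, against 52.9% of all genes. The enzymes among the higher genes were Prcp, a lysosomal carboxypeptidase (log2 fold change 2.22), and Ggh, which trims folate polyglutamates (1.08). Gm2a, an activator protein of ganglioside breakdown that is no enzyme itself, was higher by 1.13. Gm2a went from 61.8 ± 3.76 to 119.7 ± 8.67 TPM. The channel Mcoln2 (1.76; 9, 8 and 11 reads against 25, 27 and 39) and Lyst, which governs the size of lysosomes and granules and had 945, 718 and 810 reads in BALB/c and 3399, 2957 and 3602 in C57BL/6 (2.08, SE 0.10, adjusted p = 2.9e-07 in edgeR), were also higher. The remaining gene counted as higher was Atp6v0c, which did not pass once its copy was summed with it, leaving 5 higher and 9 in all. Lower, beside Atp6v0e2 and Rragb, were Sort1, a sorting receptor (-1.42; at most 49 reads in a library), and Sgsh, the sulfamidase of heparan sulfate breakdown, at 29.4 ± 1.96 against 10.01 ± 0.661 TPM (-1.38). Of the cystatins, inhibitors of cysteine cathepsins, 3 were tested: Cstb was higher (0.23), Cst7 was lower (-0.20), and Cst3 did not pass (-0.04).

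The tables list transcripts, so the strains could also be compared for which transcripts carried the reads. Of 21 lysosomal genes with several tested transcripts, 1 had a transcript past an adjusted p of 0.05 in edgeR's diffSpliceDGE, against 3.46% of all genes with several transcripts (1.37% of all transcripts tested passed). This was Gusb. Its transcript NM_001357027.1 of 1099 bases had 0 reads in each BALB/c library, which allows up to 0.0859% of the gene's reads (3 counts), and 63, 38 and 66 reads in those of C57BL/6, or 1.43%, 1.02% and 1.33% of the gene's reads. In TPM the C57BL/6 share was 3.17 ± 0.541%. The adjusted p was 0.00605, and it lay between 0.0933 and 0.11 when S9, S10 or S11 was left out. Another short transcript, NM_001357026.1, went from 0.710 ± 0.0902% to 10.3 ± 2% (adjusted p = 0.0789 in diffSpliceDGE). The long transcript NM_010368.2 carried 98.5 ± 0.457% in BALB/c and 86.3 ± 1.74% in C57BL/6.

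The transcripts of Ctsc had different shares in the strains, which did not pass the main test. NM_009982.5 of 7466 bases had 2710, 2479 and 3221 reads in BALB/c and 1278, 1046 and 1288 in C57BL/6. NM_001311790.1 of 4031 bases had 1235, 1177 and 1585 against 1542, 1163 and 1413. The share of the longer one in the gene's TPM was 52.7 ± 0.961% and 31.7 ± 1.11%, without overlap between the strains. The adjusted p was 0.0628 in diffSpliceDGE (0.317 without S12) and 2.72e-05 in limma's diffSplice, so the call depends on the test. Salmon splits reads that fit several transcripts between them, and the tables give no error for this split. Replicates differed widely for the Psap transcript NM_001146124.1, which held 0, 962 and 359 reads in BALB/c and 1550, 0 and 0 in C57BL/6.

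**Figure D5:**
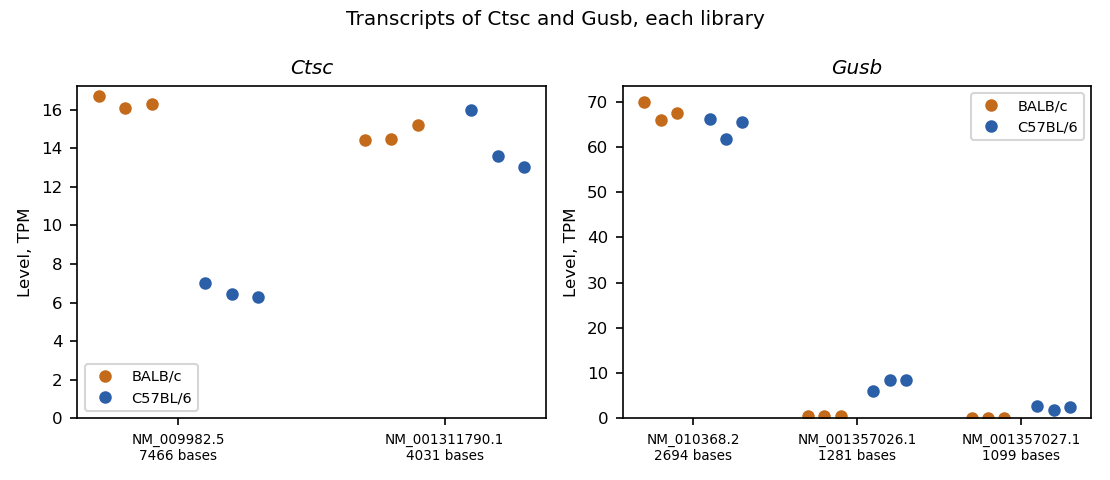
Level in TPM of the transcripts of Ctsc and of the main and short transcripts of Gusb, each point 1 library, with the length of each transcript under its name. The longer Ctsc transcript lies between 16.1 and 16.7 TPM in BALB/c and between 6.27 and 7 TPM in C57BL/6, the shorter one between 13 and 16 TPM in both, and the short Gusb transcripts are near 0 in BALB/c.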

How the data were processed

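The authors checked reads with FastQC 0.11.5 and quantified transcripts with Salmon 0.8.2 (submitters' processing notes). The deposited tables give an estimated count and a TPM value for each of 129698 RefSeq transcripts per library, from stranded mRNA libraries read 100 bases from both ends. The paper's methods name Ensembl transcripts of GRCm39, while the tables list RefSeq accessions. Accessions were matched without version to symbols in a RefSeq table of GRCm38.p6 (106440 matched, 82.1%; unmatched transcripts held 2.69% to 3.12% of reads and entered no test). Gene sums of estimated counts were rounded. Coordinates of genes are from GENCODE on GRCm39, promoters from RefSeq on GRCm38.p6.

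Strains were compared with edgeR 4.0.16 (R 4.3.3; TMM, minimum count 10, quasi-likelihood test, Benjamini-Hochberg over 12461 genes). Thresholds were 0.05 for the adjusted p and a change above 2-fold. Transcript usage was tested with diffSpliceDGE. The scripts were tested on simulated counts, which held no error from the splitting of reads between transcripts. Of 200 changed genes, the gene test found 197 with 1 false call. The test of transcript usage found 200 with 20 false calls. Alternatives used DESeq2 1.42.0, limma 3.58.1, other scalings and filters, and each library left out. With 3 against 3 libraries, an exact permutation test cannot go below 0.1. Precision is limited by the number of libraries, except for genes with few reads.

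The 48 genes, the lists and the tests were chosen with earlier results of these data known. Named with values in every library were genes past both thresholds, those with an adjusted p under 0.05 among the 10 largest changes, the 5 most abundant, Hexa, and genes with a called transcript; comparisons with related subunits and of Ctsc and Psap transcripts were chosen after their values were seen. Copies were looked for by shared words of 31 bases; for 11 of the 48 genes, at least 25% of the words of the smaller gene of a pair were shared, often those of a short RNA. A result for 1 related gene is not reported here.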

Additional observations from a re-analysis of the deposited data

How the results depend on the processing

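The number of lysosomal genes past both thresholds (5) was 3 on log2(TPM + 1) with limma and 26 by adjusted p alone, with 19 of these higher and 7 lower. Only 1 gene was lower past both thresholds on log2(TPM + 1), with the same accession version only and without S10. Leaving out each library in turn gave 4 to 6 genes in all, 3 higher and 1 to 3 lower. Of the other lysosome genes (10), 6 passed on log2(TPM + 1), 3 of them higher, and 51 by adjusted p alone (30 higher, 21 lower). Of all genes (1653), 1017 passed with 10 counts in every library (613 higher, 404 lower), 799 on log2(TPM + 1) (434 and 365) and 6588 by adjusted p alone (3361 and 3227). Transcript usage gave 3 genes (Ctsc, Gusb and Lamp1) with limma's diffSplice and 0 to 2 genes when a library was left out, Psap being the added gene without S12. Atp6v0e changed sign to -0.13 with plain library sizes and to -0.17 on TPM with either pseudocount. Lamp1, Glb1, Atp6ap1, Atp6v1a and Atp6v1c1 also turned to lower on TPM, with an adjusted p that passed (lowest values -0.12, -0.16, -0.10, -0.17 and -0.17), Atp6v1a and Atp6v1c1 with plain library sizes too. Ctsz, Npc2, Neu1 and Atp6v0d1 passed as lower with plain library sizes and on TPM (lowest values -0.25, -0.24, -0.24 and -0.25). The cause of these differences was not tested. Ctse, Npc1 and Asah1 passed both thresholds under every one of 19 alternatives. No paired analysis was possible because the strains share no replicate numbers. Depth limits the calls on Tfeb, Ctsl, Lgmn, Atp6v0d2, Mcoln2 and Sort1, which had under 100 reads in every library.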
